A study of Mus musculus with 176 samples.

Results

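The 5 genes Tigit, Cd226, Cd96, Lag3 and Havcr2 encode receptors on the surface of T cells that raise or lower the response to antigen. They were taken by name from the 53546 gene names of a single-cell count table, in which each of them was listed in 1 row. The set was chosen on measured values: Lag3 had been seen at a high level in tetramer-positive cells of this series, and its partner receptors were added to it. Every contrast of these genes between tetramer-positive and tetramer-negative cells is therefore a description, without a test.

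TIGIT, CD226 (also called DNAM-1) and CD96 belong to 1 family that binds nectins and nectin-like proteins, above all the poliovirus receptor encoded by Pvr. CD226 is activating, TIGIT is inhibitory and takes the same ligands from it, and CD96 has been described in both roles. LAG3 is a relative of CD4 that binds MHC class II molecules and other ligands and dampens signals of the T cell receptor. Havcr2 encodes TIM-3, a receptor of the TIM family that binds galectin-9, CEACAM1, HMGB1 and phosphatidylserine and, on T cells, signals with the adaptor BAG6. In CD4 T cells, Tigit, Lag3 and Havcr2 are known from regulatory cells and from cells that have met antigen repeatedly.

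Transcriptomes were measured by Smart-Seq2 in single cells of female C57BL/6J mice, an inbred strain whose MHC class II molecule is I-Ab. All cells came from animals immunized with P6, a peptide of apolipoprotein B, in complete Freund's adjuvant at 7 weeks of age and in incomplete adjuvant at 9 weeks, and inguinal and para-aortic lymph nodes were taken at 11 weeks. Antigen-experienced CD4 T cells, gated among other markers as TCRβ+ CD4+ CD44 high, were sorted by binding of a tetramer of P6 and I-Ab into 32 P6+ cells and P6- cells, 176 in all, and no cells of unimmunized mice entered. The study's text names 1 mouse for the P6+ cells, and no label ties a cell to an animal. Each group was therefore treated as 1 sample, and no test between groups was made. Cell names began with 8 different prefixes, P2 to P9, and all 32 P6+ cells bore the prefix P6, so that tetramer binding and prefix can be told apart only against the P6- cells of the same prefix.

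Of the 176 cells, 161 had at least 500000 reads and 2000 genes and under 10% mitochondrial reads. The study's own filter also used the mapping rate and kept fewer P6- cells, so the P6- group described here holds cells that its authors removed. All 32 P6+ cells passed and 15 P6- cells failed, and 11 of the passing P6- cells bore the prefix P6. Reads on genes ranged from 956280 to 3332191 in P6+ cells and from 522188 to 3401372 in the passing P6- cells. More genes were detected in P6+ cells, with a median of 4396 against 3432 in all passing P6- cells and 3674 in those of prefix P6. Most markers went with the labelled cell type. All 10 CD4 T cell markers reached 10 counts per 1000000 reads (cpm) in the higher group. Of these, Cd5 was at 5.89 cpm in P6- cells of prefix P6, and Trbc1 had 10 or more reads in 3 P6+ cells. Cd8a, Ms4a1, Pax5, Ncr1, Itgax and the 6 myeloid markers were each below 0.2 cpm in every group. Markers of other cells that did appear in P6+ cells were Gzma at 125.6 cpm and Cd79b at 46.1 cpm, each from 2 cells, and Zbtb46 at 92.7 cpm from 1 cell. In P6- cells, Cd8b1 was at 12.06 cpm from 2 cells, and Eomes at 40.6 cpm in those of prefix P6, from 1 cell. Ighm was at 999 cpm in P6+ and 548 cpm in P6- cells. It had 10 or more reads in 14 P6+ cells (43.8%) and 30 P6- cells (23.3%). The part of these transcripts in the results was not tested. No pair of cells had identical counts.

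The 5 genes had 1 feature in common that shapes all further values: in most single cells each was either abundant or nearly absent. From 10 to under 100 reads lay 3 cells for Tigit, 1 for Cd226, 4 for Cd96 and none for Lag3 and Havcr2. Among P6+ cells, 13 had 265 to 4990 Lag3 reads, 16 had 1 to 4 reads, 3 had none, and no cell lay in between. Likewise, Havcr2 was at 186 to 4320 reads in 5 P6+ cells and at 5 reads or fewer in the other 27. Cells with 10 or more reads are therefore said to hold a gene, and they supplied 99.9% of all Lag3 reads and 99.8% of all Havcr2 reads of the P6+ cells. The source of the single reads in the remaining cells was not tested. Not to hold a gene is not the same as not to transcribe it, since Cd4 itself, by whose protein the cells were sorted, was held by only 16 of 32 P6+ cells and by 39 P6- cells (30.2%).

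**Figure D1:**
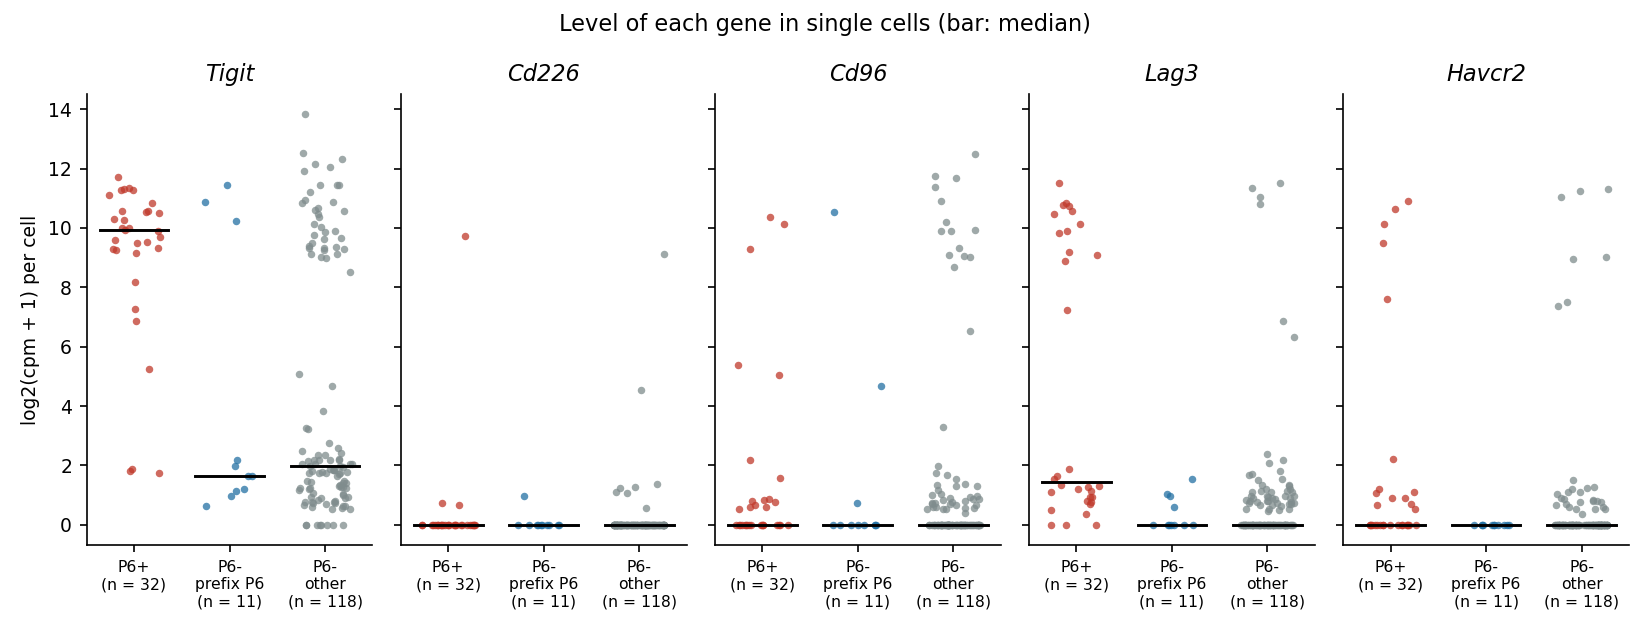
Level of each of the 5 genes in single cells, as log2(cpm + 1) on the vertical axis, in 32 P6+ cells, 11 P6- cells of prefix P6 and the P6- cells of other prefixes. Each point is a cell and the black bar is the median over cells; most values fall into an upper and a lower cloud, and Tigit in P6+ cells is the 1 panel whose median lies in the upper cloud, at 967 cpm.

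Tigit was the most widespread of the 5 genes. It was held by 29 of 32 P6+ cells, or 90.6% (exact 95% binomial interval 74.98 to 98.02%), against 3 of 11 P6- cells of prefix P6 (27.3%, interval 6.02 to 60.97%) and 42 P6- cells of all prefixes (32.6%, interval 24.6 to 41.4%). Intervals of shares cover the sampling of cells alone, and those of read sums cover counting error alone, as the reads were amplified and carry no molecular identifiers. Tigit reads in the 29 holding P6+ cells ranged from 57 to 7560 with a median of 1725. Holding cells of the 2 groups were at like levels, with a median of 1016 cpm in P6+ and 1171 cpm in P6- cells, and the groups overlapped throughout this range. The higher pooled level of P6+ cells went with a larger share of cells holding Tigit, not with a higher level within them.

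Summed over cells, Tigit made up 1133 cpm of P6+ cells, 291 cpm of P6- cells of prefix P6 and 589 cpm of all P6- cells. On the log2 scale with a pseudocount of 1 cpm, P6+ was higher by 1.96 within prefix P6 and by 0.94 over all prefixes. The second value stayed below the 2-fold mark in part through 1 P6- cell of prefix P9 with 19268 Tigit reads, which supplied 16.1% of all P6- reads of the gene. Without that cell it was 1.19. The 3 P6+ cells that did not hold Tigit had 4, 5 and 6 reads.

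Cd226, the activating receptor that competes with TIGIT for the same ligands, was nearly absent. A single P6+ cell held it, with 1762 reads, and no other P6+ cell had more than 1 read. That cell was 1 of the 3 with almost no Tigit, at 5 reads, and at the same time had 2348 reads of Cd96, the most of all P6+ cells in reads but not in cpm, with 1120 cpm against 1324 cpm in another cell. Over all prefixes, 2 P6- cells held Cd226, with 813 and 42 reads, both of prefix P2, and unlike the P6+ cell both held Tigit, with 1414 and 1552 reads. The pooled level was 29.7 cpm in P6+ cells, 0.0648 cpm in P6- cells of prefix P6, where it rested on 1 read, and 4.25 cpm in all P6- cells. The log2 ratios of 4.85 within prefix P6 and 2.55 over all prefixes rested on the 1 cell, without which they were -0.04 and -2.34.

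Cd96 was the 1 gene of the set with a lower pooled level in P6+ cells. It stood at 87.9 cpm in P6+ cells and at 180 cpm in P6- cells of prefix P6 as well as in all P6- cells, a log2 ratio of -1.02 in both comparisons. The share of holding cells, in contrast, was nearly equal, with 5 of 32 P6+ cells (15.6%, interval 5.28 to 32.8%), 2 of 11 P6- cells of prefix P6 (18.2%, interval 2.28 to 51.8%) and 18 P6- cells of all prefixes (13.95%, interval 8.48 to 21.1%). The 5 P6+ cells had 31, 64, 1100, 1654 and 2348 reads, while the 2 P6- cells of prefix P6 had 67 and 2706 reads. The lower level within prefix P6 rested on the last of these cells: without it the log2 ratio was 3.89 in the opposite direction. A ratio formed from the mean cpm of the cells was -0.46 there, short of the 2-fold mark. Over all prefixes, the ratio fell short of that mark under 7 of 19 alternatives, among them no filter on cells (-0.95) and leaving out the P6- cells of prefix P8 (-0.76) or P9 (-0.72).

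Lag3, through which the set was chosen, was held by 13 of 32 P6+ cells (40.6%, interval 23.7 to 59.4%), by none of the 11 P6- cells of prefix P6 (interval up to 28.5%) and by 6 P6- cells of all prefixes (4.65%, interval 1.73 to 9.85%). The 13 P6+ cells had a lowest value of 265, a median of 1683 and a highest value of 4990 reads. The 6 P6- cells had 158, 165, 3080, 3257, 4838 and 4863 reads, so the few P6- cells with Lag3 reached the same level as P6+ cells. In cpm, the median over holding cells was 1115 in P6+ and 1952 in P6- cells. No single cell dominated the P6+ sum, the largest share being 18.1%.

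The pooled level of Lag3 was 464 cpm in P6+ cells, 0.259 cpm in P6- cells of prefix P6, from 4 reads in as many cells, and 80.6 cpm in all P6- cells. The log2 ratio was 8.53 within prefix P6 and 2.51 over all prefixes. Without the pseudocount, the ratio within prefix P6 was 1792-fold, with a counting interval of 699.8 to 6578. The size of this ratio depended on 1 cell that the limit of 500000 reads had removed: a P6- cell of prefix P6 with 487916 reads held 560 Lag3 and 100 Tigit reads, and with no filter on cells the log2 ratio was 3.68. Cells with and without Lag3 had been sequenced alike, with medians of 1753313 and 1709902 reads and of 4467 and 4390 genes in P6+ cells.

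Havcr2 was held by 5 of 32 P6+ cells (15.6%, interval 5.28 to 32.8%), by 0 of 11 P6- cells of prefix P6, which allows a share of up to 28.5%, and by 7 P6- cells of all prefixes (5.43%, interval 2.21 to 10.9%). The P6+ cells had 186, 1277, 1304, 1751 and 4320 reads, and the P6- cells 231 to 4288 reads with a median of 999, so that the levels of holding cells overlapped. Havcr2 stood at 149 cpm in P6+ cells, of which 1 cell supplied 48.8%, and at 56.4 cpm in all P6- cells. The log2 ratio over all prefixes was 1.39 and was 0.49 without that cell, below the 2-fold mark. No read of Havcr2 was counted in the P6- cells of prefix P6. Against 3 reads over that group, P6+ cells were at least 768-fold higher. With the pseudocount the log2 ratio was 7.23, and 6.33 without the cell of 4320 reads.

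**Figure D2:**
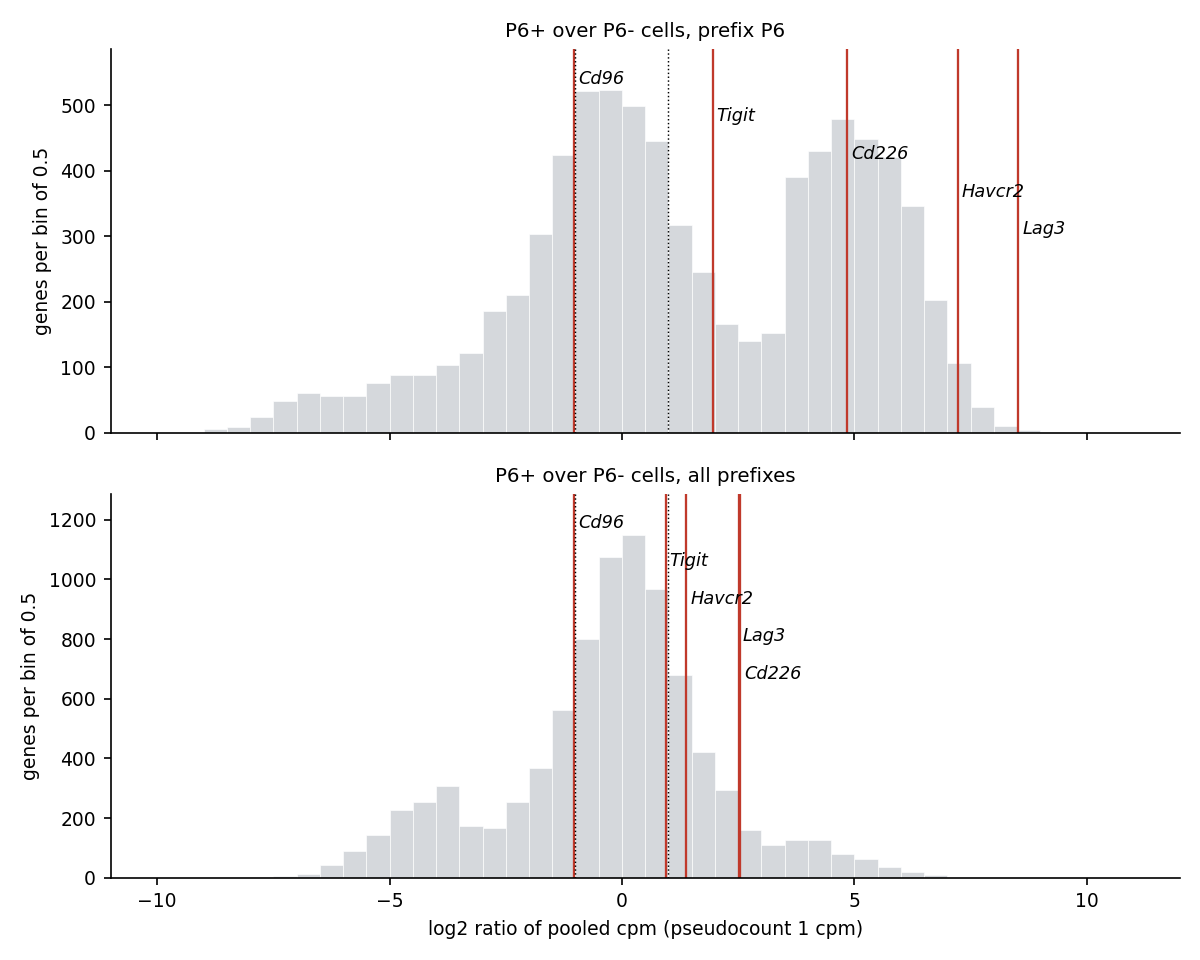
Number of genes in bins of the log2 ratio of pooled cpm, P6+ over P6- cells, within prefix P6 (upper panel) and over all prefixes (lower panel), for all genes with 10 cpm or more in the higher group. Red lines mark the 5 genes and dotted lines a 2-fold difference; in the upper panel many other genes also lie near a log2 ratio of 5, where Cd226 stands at 4.85.

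These ratios need the background of all genes beside them. Of the 5 genes, 4 were at least 2-fold higher and 1 was at least 2-fold lower in P6+ cells within prefix P6. Among the 7761 genes with 10 cpm or more in the higher group, 50.3% were at least 2-fold higher and 24% at least 2-fold lower in the same comparison, with a median log2 ratio of 1.04. Over all prefixes, 3 of the 5 genes, Cd226, Lag3 and Havcr2, were at least 2-fold higher, Cd96 was at least 2-fold lower, and Tigit fell between the marks. There, 24.3% of 8728 genes were at least 2-fold higher and 29.9% at least 2-fold lower, with a median of -0.05. The median log2 ratio of the 5 genes was 4.85 within prefix P6 and 1.39 over all prefixes. Since the set was chosen on this contrast, nothing is read from its counts.

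Levels of different genes were compared per kilobase of exon. In P6+ cells Tigit led with 1232 cpm per kb, followed by Lag3 with 220.1, Havcr2 with 54.8, Cd96 with 40.2 and Cd226 with 6.08 cpm per kb. In all P6- cells the order was Tigit with 641, Cd96 with 82.3, Lag3 with 38.2, Havcr2 with 20.7 and Cd226 with 0.868 cpm per kb. Cd96 thus stood behind Tigit in P6- cells and behind Havcr2 in P6+ cells. The gap between Havcr2 and Cd96 in P6+ cells was smaller than what a single cell supplied to either gene, as 1 cell gave 48.8% of Havcr2 and another 45.03% of Cd96 reads.

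On the GRCm38 assembly, Tigit (chr16:43648867-43664146) and Cd96 (chr16:46035657-46120251) lie on the minus strand of chromosome 16, separated by 2.37 Mb. Lag3 (chr6:124904361-124911705) lies 16.1 kb from Cd4, its relative, also on the minus strand. Havcr2 (chr11:46454935-46481255) is on the plus strand of chromosome 11, 254 kb from Havcr1, another TIM gene. No exon of these 4 genes or of Cd226 overlaps another annotated gene. Of P6+ cells, Cd4 was held by 4 of 13 cells with Lag3 (30.8%) and 12 of 19 cells without it (63.2%). In P6- cells of all prefixes the shares were alike, at 33.3% of cells with Lag3 and 30.1% of cells without it. The difference in P6+ cells was not tested.

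The P6- cells of the 8 prefixes differed widely among themselves, which sets the spread against which P6+ cells can be seen. Tigit was held by 20 to 50% of P6- cells per prefix, and every prefix was below the 90.6% of P6+ cells. Lag3 was held by 0 to 16.7% of P6- cells per prefix, again below the 40.6% of P6+ cells in all 8. Over all 8728 genes, 26.1% were held by a larger share of P6+ cells than of P6- cells of any prefix. The shares of Havcr2 (0 to 16.7%), Cd96 (0 to 31.3%) and Cd226 (0 to 16.7%) overlapped those of P6+ cells.

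In pooled level, Lag3 and Havcr2 were higher in P6+ cells than in each of the 8 prefixes, which was so for 14.6% of all genes. Each of these orders rested on 1 cell: without the P6+ cell with most reads of the gene, a choice made after seeing the data, Lag3 was at 399.9 cpm and above 7 of the prefixes, and Havcr2 at 79.4 cpm and above 5. Lag3 was at 410 cpm in prefix P7, 246 in P2, 146 in P9 and 6.37 in P4, and below 1 cpm in the other 4 prefixes. The value in prefix P7 came from 2 of 12 cells and approached the 464 cpm of P6+ cells. Havcr2 was between 63.1 and 105.7 cpm in prefixes P2, P3, P8 and P9 and below 1 cpm in the remaining 4. Tigit ranged from 172 cpm in prefix P5 to 1548 cpm in P9, where the cell with 19268 reads supplied 55.7%, so that 7 of 8 prefixes were below P6+ cells. Cd96 exceeded its P6+ level in 6 prefixes, with up to 455 cpm in P9, and was at 0.0983 and 0.206 cpm in P2 and P7. These 2 prefixes without Cd96 were those with the most Lag3 among P6- cells.

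**Figure D3:**
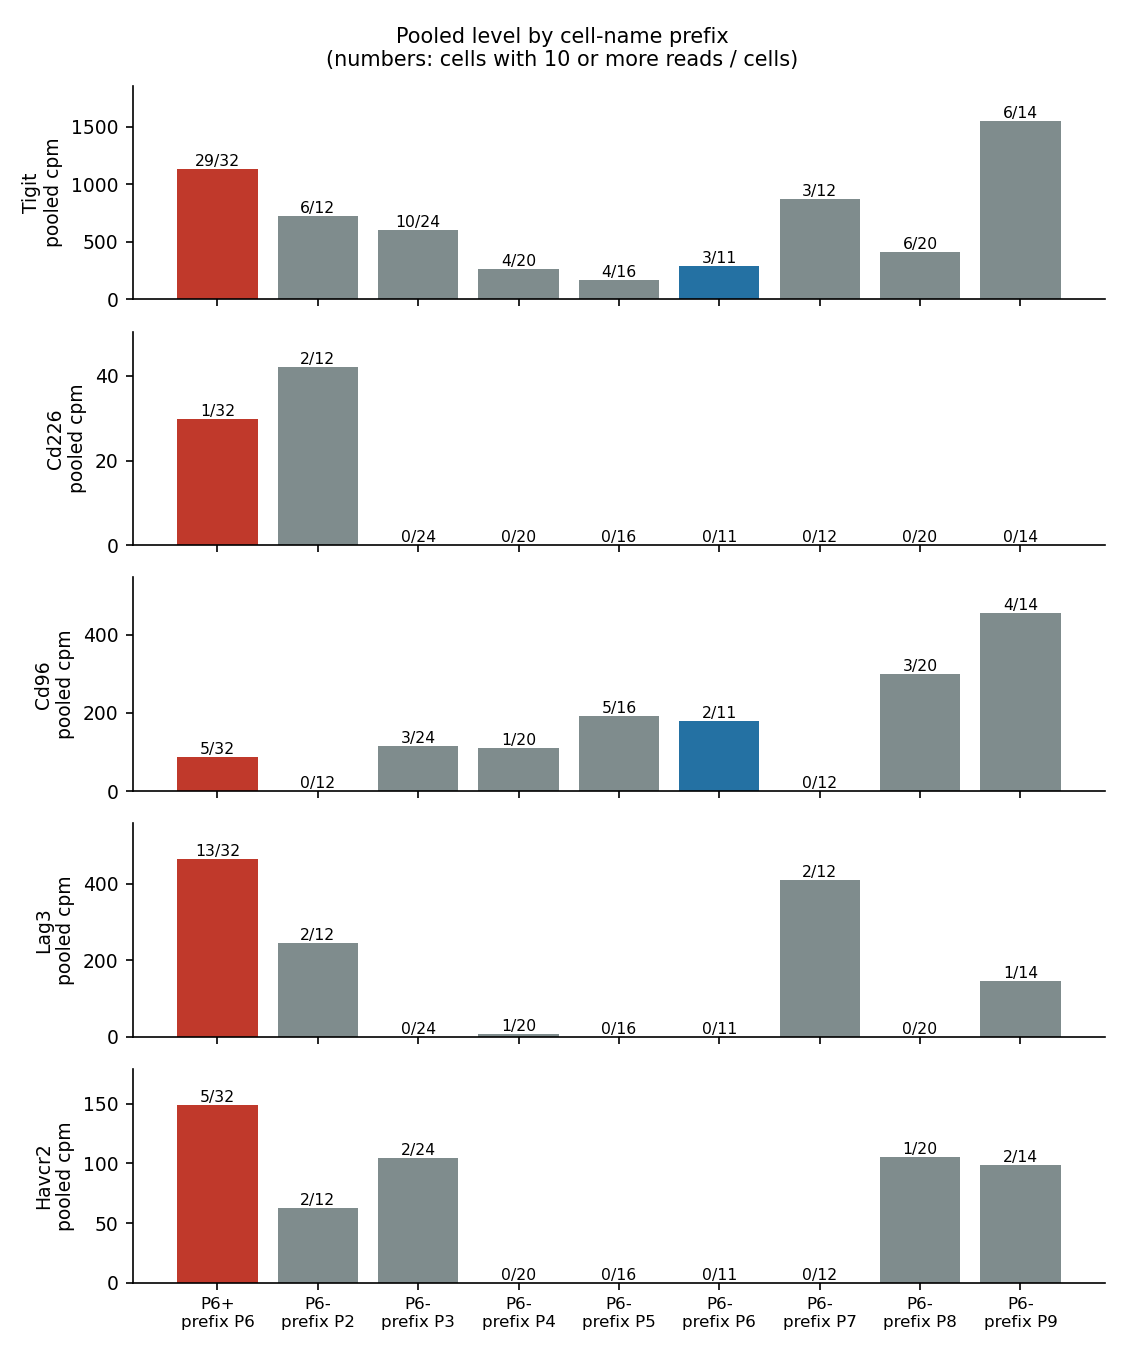
Pooled cpm of each gene (vertical axes, from 0) in the 32 P6+ cells and in the P6- cells of each of the 8 prefixes; numbers above the bars give cells with 10 or more reads out of all cells. The Lag3 and Havcr2 bars of P6+ cells are the highest of their panels, at 464 and 149 cpm (399.9 and 79.4 cpm without the 1 cell with most reads, below the highest prefix), while prefix P9 exceeds P6+ cells for Tigit and P2 for Cd226.

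Read cell by cell, many P6+ cells held several of the receptors. All 13 cells that held Lag3 also held Tigit, with 521 to 7560 reads, while 16 cells held Tigit without Lag3. All 5 cells with Havcr2 held Tigit, and 4 of them held Lag3. Tigit alone was the most frequent state with 15 cells, followed by Tigit with Lag3 in 7 cells and Tigit, Lag3 and Havcr2 in 3. A further 2 cells held Tigit, Cd96 and Lag3, and 1 cell held all of the genes but Cd226, with 1445 reads of Tigit, 31 of Cd96, 1066 of Lag3 and 186 of Havcr2. Of the remaining 4 cells, 1 held Tigit and Havcr2, 1 Cd226 and Cd96, 1 Cd96 alone and 1 none of the genes.

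At least 2 of the 5 genes were held by 15 of 32 P6+ cells (46.9%, interval 29.1 to 65.3%), by 0 of 11 P6- cells of prefix P6 (interval up to 28.5%) and by 14 P6- cells of all prefixes (10.9%, interval 6.06 to 17.5%). The count of 0 depended on the limit of 500000 reads, since the P6- cell of prefix P6 with 487916 reads held both Lag3 and Tigit. In P6- cells, where Tigit was held by a minority, 5 of 6 cells with Lag3 and 6 of 7 cells with Havcr2 held Tigit, and both cells with Cd226 did. Of the 18 P6- cells with Cd96, 16 held none of the other 4 genes, and the 2 exceptions had 35 and 19268 Tigit reads. No P6- cell held Cd96 together with Lag3 or Havcr2, and 3 of the 5 P6+ cells with Cd96 held Lag3, beside 40.6% of all P6+ cells. Whether these counts differ from those of cells at large was not tested. A single P6- cell, of prefix P2, held Tigit, Lag3 and Havcr2, with 1355, 158 and 999 reads.

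Over the 32 P6+ cells, Spearman's rho of log2(cpm + 1) was 0.52 between Tigit and Lag3, -0.02 between Lag3 and Havcr2 and -0.10 between Tigit and Havcr2. Over the passing P6- cells, rho between Tigit and Lag3 was 0.19. The points of each correlation are cells of 1 sample, and low counts weigh in them as much as high ones.

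**Figure D4:**
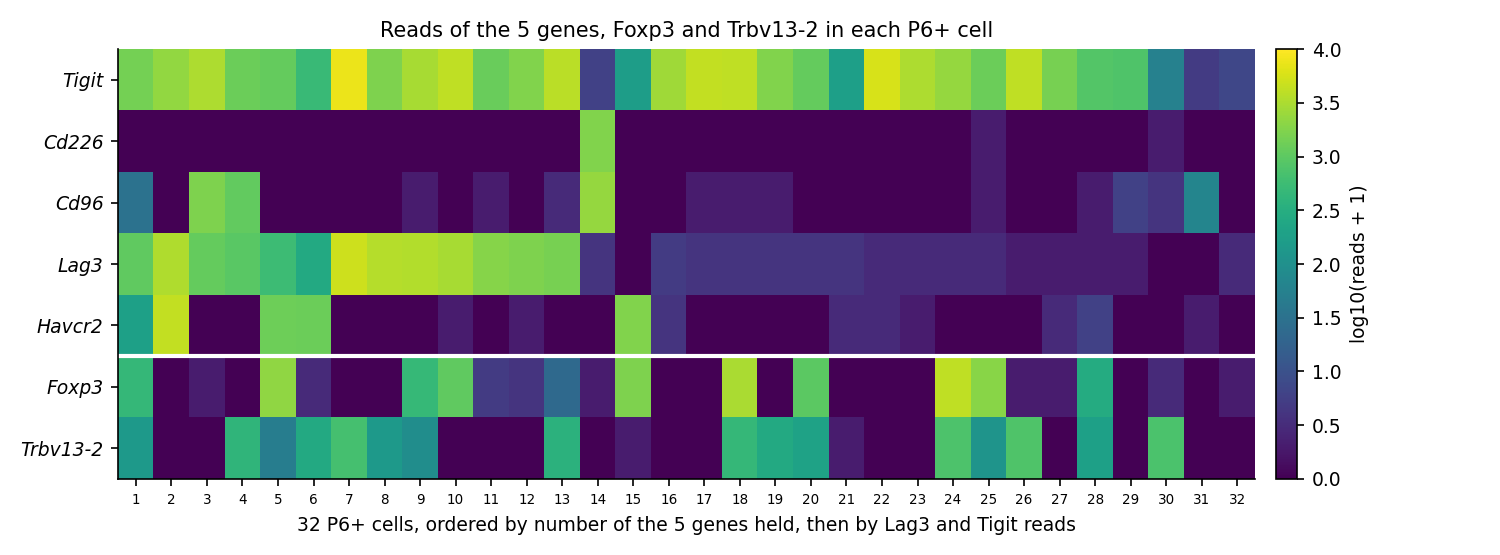
Reads of the 5 genes and, below the white line, of Foxp3 and Trbv13-2 in each of the 32 P6+ cells (columns), coloured by log10(reads + 1). Cells are ordered by how many of the 5 genes they held, then by Lag3 and Tigit reads; the first 6 cells held at least 3 genes and all 13 cells with Lag3 lie at the left, each with Tigit.

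Foxp3, the transcription factor that defines regulatory T cells, was held by 11 of 32 P6+ and 19 P6- cells, with no passing cell between 5 and 19 reads. Among P6+ cells, Lag3 was held by 5 of 11 cells with Foxp3 (45.5%, interval 16.7 to 76.6%) and by 8 of 21 cells without it (38.1%, interval 18.1 to 61.6%). Havcr2 was held by 3 of 11 (27.3%, interval 6.02 to 60.97%) and 2 of 21 cells (9.52%, interval 1.17 to 30.4%). Tigit was held by all 11 cells with Foxp3 and by 18 of 21 without. These differences were not tested. The share with Tigit was 85.7% in P6+ cells without Foxp3 (interval 63.7 to 96.95%) and 47.4% in P6- cells that held Foxp3 (9 of 19 cells, interval 24.4 to 71.1%), a difference that was not tested. Of these 19 P6- cells, 1 held Lag3 and 2 held Havcr2. Within prefix P6, none of the 3 P6- cells with Foxp3 held Tigit and 2 held Cd96.

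**Figure D5:**
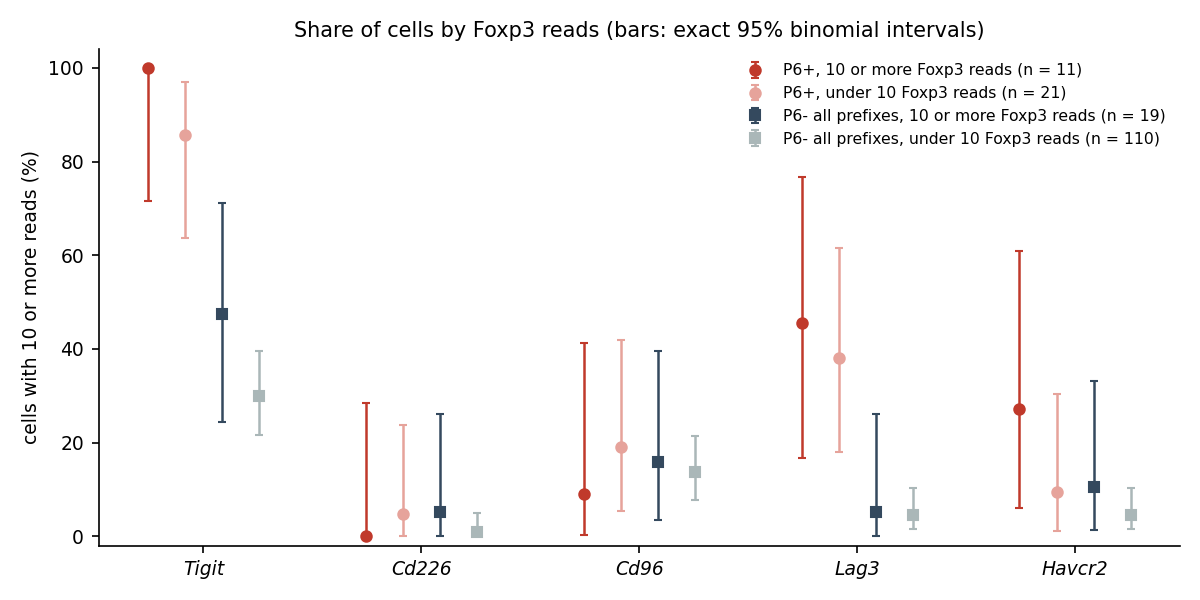
Share of cells with 10 or more reads of each gene, in percent, among P6+ and P6- cells with 10 or more or under 10 Foxp3 reads; bars are exact 95% binomial intervals and the legend gives the number of cells. The shares of Lag3 are 45.5% and 38.1% in P6+ cells and 5.26% and 4.55% in P6- cells, with and without Foxp3.

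Trbv13-2 encodes the variable segment of the T cell receptor beta chain that the methods assign to the main clone. It was held by 16 of 32 P6+ cells. Lag3 was held by 8 of 16 cells with this segment (50%, interval 24.7 to 75.3%) and by 5 of 16 cells without it (31.3%, interval 11.02 to 58.7%). Tigit was held by all 16 cells with the segment and by 13 of 16 without it, so that the 3 P6+ cells lacking Tigit also lacked this segment. Havcr2 was held by 3 and 2 cells and Cd96 by 2 and 3 cells, with and without the segment. Differences between cells with and without the segment were not tested.

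The nectin family was represented by few transcripts in these T cells. Of 8 nectin ligands and relatives, 2 reached 10 cpm in either comparison. Pvr, the shared ligand of TIGIT, CD226 and CD96, was at 18.1 cpm in P6+ cells, where 1 cell held it, at 343 cpm in P6- cells of prefix P6 with 4 of 11 cells, and at 113.5 cpm in all P6- cells with 19 cells. The log2 ratio was -4.17 within prefix P6 and -2.58 over all prefixes. Of the P6- cells of prefix P6, 1 gave 57.8% of the Pvr reads, and without it the ratio was -3.21. In P6- cells, Pvr was held by 4 of 42 cells with Tigit and 15 of 87 cells without it. Pvrig, another inhibitory receptor of the family, stood at 30.3 cpm in P6+ cells, from 2 cells, at 0.0648 cpm in P6- cells of prefix P6 and at 4.72 cpm in all P6- cells. Nectin1 and Nectin2 were at 0.489 and 0.0169 cpm in P6+ cells.

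Among 9 ligands, relatives and sheddases of LAG3, 4 could be compared. H2-Aa, H2-Ab1 and H2-Eb1, the MHC class II genes whose products LAG3 binds, were at or below 0.101 cpm in both groups, and Fgl1 and Clec4g were listed at 0. Cd4 was at 401 cpm in P6+ and 393 cpm in all P6- cells. Adam10, a protease that cleaves LAG3 from the cell surface, was at 201 cpm in P6+ cells (9 cells) and 55.3 cpm in P6- cells (15 cells), a log2 ratio of 1.85 over all prefixes and 0.95 within prefix P6. In the P6- cells of that prefix 1 cell gave 95.4% of the Adam10 reads, and without it the ratio was 4.99. For Adam17, the other such protease, the values were 106.2 and 74.8 cpm, with a log2 ratio of 0.50 over all prefixes. Within prefix P6 the ratio was 6.27, against 0.389 cpm in P6- cells, none of which held the gene. Lgals3, which encodes galectin-3, was at 17.6 and 19.7 cpm, and at 123.7 cpm in P6- cells of prefix P6, where 1 cell gave 99.8% of the reads. The log2 ratio of Cd4 within prefix P6 was -0.29, and 0.49 without the P6- cell with most Cd4 reads.

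Of 6 relatives and ligands of TIM-3, 3 could be compared. Lgals9, which encodes galectin-9, was at 343 cpm in P6+ and 326 cpm in all P6- cells, and Hmgb1 at 426 and 418 cpm. Against the P6- cells of prefix P6 both were past 2-fold, in opposite directions: Lgals9 was at 61.8 cpm there, a log2 ratio of 2.46, and Hmgb1 at 932 cpm, a ratio of -1.13. Of the Lgals9 reads of those P6- cells, 99.4% came from 1 cell, and without the P6- cell with most Hmgb1 reads the ratio of Hmgb1 was -0.35, short of the 2-fold mark. Bag6, the adaptor of TIM-3, had a lower pooled level in P6+ cells over all prefixes, with 20.3 against 51.3 cpm and a log2 ratio of -1.30. The share of holding cells went the other way, with 9 P6+ cells (28.1%) and 23 P6- cells (17.8%). Within prefix P6, Bag6 was higher in P6+ cells, with a ratio of 2.20. There, 1 P6- cell gave 98.2% of the P6- reads, and without it the ratio was 4.32. Ceacam1 was at 0 and 0.0294 cpm. Among 10 signalling partners, 0 were higher and 1, the kinase gene Fyn, was lower by 2-fold or more over all prefixes, beside 24.3% and 29.9% of all genes, with a median log2 ratio of -0.06. Within prefix P6, 3 were higher and 2 lower, beside 50.3% and 24% of all genes, with a median of 0.52. These counts rested in part on single P6- cells. Ptpn6, 1 of the 2 lower genes with a ratio of -1.69, was at 5.09 without the cell that gave 99.6% of its P6- reads. Fyn and Ptpn6 were named after their values were seen. Lck, the kinase next to the T cell receptor, was at 1166 cpm in P6+ and 1818 cpm in P6- cells, Itgb2 and Itgal, the subunits of the integrin LFA-1 that pairs with CD226, at 780.5 against 667 and 465 against 325 cpm, and the phosphatase gene Ptpn11 at 132.8 against 138.9 cpm. The direction turned for Lck within prefix P6, where P6- cells were at 881 cpm and the log2 ratio was 0.40, against -0.64 over all prefixes. The ratios within prefix P6 were 0.64 for Itgb2, 1.57 for Itgal and -0.12 for Ptpn11, where 1 P6- cell gave 99.6% of the reads. Without the P6- cell with most reads of the gene, the ratios were 1.77 for Itgb2, 3.97 for Itgal and 6.29 for Ptpn11. For Lck the ratio was then 1.06.

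Of 13 genes of a list of other co-inhibitory receptors and their regulators, 11 could be compared. Over all prefixes, 3 of them (Il10, Maf and Entpd1) were higher and 2 (Pdcd1 and Nr4a1) lower by 2-fold or more, beside 24.3% and 29.9% of all genes. The median log2 ratio was -0.08 beside -0.05 for all genes, and Il10, Maf and Entpd1 were named after their values were seen. Within prefix P6, 6 were higher and 1 lower, beside 50.3% and 24%, with a median of 1.46 beside 1.04. Il10 was held by 3 P6+ cells, 1 of which gave 61.4% of the P6+ reads, and by 1 P6- cell. Entpd1 was held by 3 P6+ cells, 1 of which gave 51.6%, and by 2 P6- cells. Maf was held by 20 P6+ and 28 P6- cells. Ctla4 was held by 25 of 32 P6+ cells at 779 cpm and by 59 P6- cells (45.7%) at 498 cpm. Pdcd1, the gene of PD-1, was at 111.5 cpm in P6+ and 336 cpm in all P6- cells, and was held by similar shares, 4 P6+ cells (12.5%) and 16 P6- cells (12.4%). Nr4a1, induced by signals of the T cell receptor, was at 275 and 1018 cpm, and Nfil3, a factor that induces Havcr2, at 199.6 and 254 cpm. Nr4a1 was held by similar shares of P6+ (40.6%) and P6- cells (38.8%), and 1 P6- cell gave 25.4% of its P6- reads. Within prefix P6, the log2 ratio was 1.46 for Ctla4 (2.47 without the P6- cell with most Ctla4 reads), -1.32 for Pdcd1 and -0.75 for Nr4a1. The direction of the last 2 rested on 1 P6- cell each: without the P6- cell with most reads of the gene, an alternative chosen after seeing the data, the ratio was 5.58 for Pdcd1, where that cell had 4312 reads (99.6%), and 0.45 for Nr4a1. For Nfil3 it was 6.72 there, against -0.35 over all prefixes, as P6- cells of prefix P6 were at 0.907 cpm.

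Pdcd1 was held together with Havcr2 or Lag3 in P6- cells but not in P6+ cells, a difference that was not tested. None of the 13 P6+ cells with Lag3 and none of the 5 with Havcr2 held Pdcd1, with at most 8 reads in any of them. In P6- cells, 6 of 7 cells with Havcr2 held Pdcd1, with 76 to 17062 reads, and 3 of 6 cells with Lag3 did, with 17, 58 and 2823 reads. All 4 P6+ cells with Pdcd1 held Tigit and were among those without Lag3. Ctla4 was held by 10 of 13 P6+ cells with Lag3 and 15 of 19 without it.

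In a list of 14 genes of regulatory T cells, 6 were higher and 1 was lower by 2-fold or more over all prefixes, beside 24.3% and 29.9% of all genes, with a median log2 ratio of 0.82 beside -0.05. Within prefix P6, 9 of the 13 that could be compared were higher and 1 was lower, beside 50.3% and 24%, with a median of 1.46 beside 1.04. Tnfrsf4, which encodes OX40, was held by all 32 P6+ cells and by 88 P6- cells (68.2%), at 3667 and 2414 cpm. Capg was at 1214 and 495 cpm and Icos at 1453 and 1390 cpm. Within prefix P6, the log2 ratios were 1.21 for Tnfrsf4, 2.90 for Capg and 0.77 for Icos. Without the P6- cell with most reads of the gene, they were 1.55, 4.22 and 1.26. The study's own text names part of this list for these cells, so it is not independent of them. Of 9 follicular helper genes, 7 could be compared, of which 0 were higher and 1, Pdcd1, was lower over all prefixes, beside 24.3% and 29.9% of all genes. Within prefix P6, 1 was higher and 1 lower, beside 50.3% and 24%. The higher was Slamf6, with a log2 ratio of 6.43 against 1.17 cpm in P6- cells, none of which held it. The lower was again Pdcd1, through the 1 P6- cell of 4312 reads. Izumo1r was at 580 and 372 cpm, Slamf6 at 185 and 312 cpm and Sh2d1a at 127.7 and 154 cpm. Within prefix P6, the log2 ratio was -0.09 for Izumo1r and 0.20 for Sh2d1a, against 0.64 and -0.26 over all prefixes. The values within prefix P6 rested on single P6- cells: all Sh2d1a reads of that group came from 1 cell, and without the P6- cell with most Izumo1r reads the ratio of that gene was 0.59. Ccr7, a receptor of naive and central memory cells, was at 823 cpm in P6+ and 2612 cpm in P6- cells, and at 3231 cpm in those of prefix P6.

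The genes whose levels followed each receptor most closely were sought over all 161 passing cells, among 1772 genes held by at least 20% of them. Tigit was followed by S100a11 (rho 0.50), Odc1 (0.49), Gm17709 (0.48), Stx11 (0.47) and Gm7993 (0.47). Within P6+ cells alone, where nearly all cells held Tigit, these values were 0.14 to 0.34, and within P6- cells 0.36 to 0.46. Lag3 was followed by AU020206 (0.38), by Tigit itself (0.37), and by Zap70 (0.34), Cmtm7 (0.34) and Mt1 (0.33). The correlation of Lag3 with Zap70 was 0.058 within P6+ cells and 0.28 within P6- cells. Zap70, a kinase that acts downstream of the T cell receptor, also came first for Havcr2 (0.35), ahead of Mob2 (0.32), Tmem14c (0.31) and Gm14173 (0.29). For Cd96 the highest were Idh3g (0.32), Rps15a-ps7, Rps15a-ps5, Rps15a-ps6 (0.28, 0.28 and 0.27) and Polr2a (0.27), where the pseudogenes are near copies of 1 gene whose reads may be split among them. For Cd226, held by 3 cells, the highest value was 0.28 with Il2rg, followed by Vcp-rs, Bcl11b, Hacd3 and Dnm2 (0.26 to 0.21). Over the same cells, rho with the number of genes detected was 0.28 for Tigit, 0.24 for Lag3 and 0.23 for Havcr2, and rho with total reads was -0.0033, 0.048 and -0.044. The part of these in the likeness was not tested. Correlations of this size in sparse counts are a description and no finding.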

How the data were processed

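The authors aligned paired-end reads with STAR 2.6.0a to GRCm38 with Ensembl annotation and deposited gene counts of 176 cells, not normalized and with no cell removed, and the tetramer sign of each cell, which matched the label of all 176. Smart-Seq2 has no molecular identifiers and does not mark strand. Each well received 1 sorted cell, and no doublet caller was run. For 81 names with several rows, the rows were averaged. Cells were filtered as described, without the mapping rate, which was not used here. The counts of each gene were added up over a group and scaled to 1000000 reads (cpm), and log2 ratios used a pseudocount of 1 cpm and were described against genes with 10 cpm or more in the higher group. A gene was held by a cell with 10 or more reads. Intervals at 95% were exact, from the Poisson distribution for read sums and the binomial for shares. A count of 0 allows 3 counts.

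Exon lengths and positions came from GENCODE M21 annotation of GRCm38. The genes and lists were chosen with earlier results of these data known. Named were the 5 receptors, Foxp3 and Trbv13-2, the 5 genes of highest rho per receptor (receptor segments left out), and the 4 genes of each list with the highest cpm, with exceptions marked. A few genes that these rules name are left out of the text. Alternatives changed filter, scaling (TMM of edgeR 4.0.16, size factors of DESeq2 1.42.0, on sums without a test), pooling, depth, pseudocount and cells. Other steps used scipy 1.17.1, pandas 2.3.3 and numpy 2.4.6 in Python 3.11.15, and R 4.3.3 gave the scaling factors.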

Additional observations from a re-analysis of the deposited data

How the results depend on the processing

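The number of the 5 genes past 2-fold in either direction was 5 within prefix P6 and stayed at 4 or 5 under 10 alternatives. Of all genes, 50.3% were past the mark upward and 24% downward there. Over all prefixes the number was 4, and 3 to 5 under 19 alternatives, beside 24.3% and 29.9% of all genes. A gene whose direction turned still counted, so a steady number does not mean steady directions. Leaving out each cell in turn gave 4 to 5 genes within prefix P6 and 2 to 5 over all prefixes, where 2 was reached without the P6+ cell of 4320 Havcr2 reads. Without the cell with most reads of the gene in each group, the direction turned for Cd96 within prefix P6 (3.09) and for Cd226 over all prefixes (-0.29). Leaving out single cells gave log2 ratios of -0.041 to 4.94 for Cd226 and of -1.82 to 3.89 for Cd96 within prefix P6, and of -2.34 to 4.61 for Cd226 over all prefixes. Tigit, Lag3 and Havcr2 kept their direction under each of these alternatives. Their log2 ratios over all prefixes ranged from 0.82 to 1.26, from 2.20 to 3.31 and from 1.13 to 1.73, apart from single cells left out. Within prefix P6 Tigit ranged from 1.07 (mean of the cpm of each cell) to 2.89 (at least 1000000 reads per cell). Thinning every cell to 500000 reads left the share of cells with 10 or more reads as it was for all genes and groups but Cd96 in P6- cells, at 13.2%. With a minimum of 1 read, Tigit was in 100% of P6+ cells, 100% of P6- cells of prefix P6 and 93.8% of all P6- cells, so that its contrast in shares was gone, and Lag3 in 90.6%, 36.4% and 43.4%. No paired analysis was possible because each group is 1 sample and cells carry no numbers that pair them. A count of 0 of 11 P6- cells of prefix P6 allows a share of up to 28.5%.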
